A study of Mus musculus with 4 samples.

Results

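The cytosolic ribosomal protein genes were read across 4 poly(A) RNA-seq libraries of mouse dendritic cells. Members were the rows of the count table whose symbol begins with Rpl or Rps and a digit, together with Rpsa, Rplp0, Rplp1 and Rplp2. Kinase genes named Rps6k (10 rows) and pseudogenes named -ps (257 rows) were left out of the 359 rows that matched the pattern, and 9 of the 92 rows that remained had fewer than 100 counts over all libraries. This left 83 genes of 46078 gene rows. They comprised 42 proteins of the large subunit, 31 of the small subunit, 3 of the stalk, 4 paralogs (Rpl22l1, Rps27l, Rpl7l1 and Rpl36al), 2 retrogenes annotated as transcribed processed pseudogenes (Rps4l and Rpl37rt), and Rps19bp1, which is named for its binding to Rps19 and is no subunit.

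The study compared CD11c-cre mice (Ctrl, 2 libraries) with CD11c-cre-Il33flx/flx mice (Il33flx, 2 libraries), in which Cre driven by the CD11c promoter can delete Il33 in dendritic cells and in some other myeloid cells. All mice, Ctrl included, carried the Cre transgene and had received EL4-Flt3 tumour cells 10 days before they were killed. The sorted cells, taken from spleen and mesenteric lymph node, were positive for CD45, CD11b, MHCII and CD103 and negative for CD64. The labels give no age or strain. Nothing in them states that replicate libraries derive from different animals, so a p-value reflects only how far these libraries spread; that spread may be technical.

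Every cytosolic ribosome is built from a small subunit, which reads the mRNA, and a large subunit, which forms the peptide bond. Most of its proteins are needed in equal numbers. Most mRNAs of ribosomal proteins begin with a C followed by a run of pyrimidines, the 5′ terminal oligopyrimidine (TOP) motif. Through this motif the mTORC1 pathway and the binding protein Larp1 control their translation together. Dendritic cells change their rate of protein synthesis as they mature. Many ribosomal protein mRNAs have been copied back into the genome, so the mouse carries a large number of near-identical processed pseudogenes.

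Libraries held 67707682 to 81217828 gene counts. For Il33 itself, 4 and 8 counts were found in Ctrl and 4 and 0 in Il33flx, too few to check the labels. The genes of the sort gate and of type 1 conventional dendritic cells were present in every library, with Xcr1 at 506 to 841 and Clec9a at 99.8 to 120 CPM (counts scaled to a fixed library total by edgeR's TMM factors), while Fcgr1, which encodes the excluded CD64, stood at 3.66 to 5.50 CPM. The 6 markers of type 2 conventional dendritic cells were present as well, from Sirpa at 258 to 319 CPM down to Epcam at 2.37 to 3.31 CPM. Ctrl 1 stood apart for genes outside the family: of 7747 other genes in the CPM range of the ribosomal proteins (10.0 to 535 CPM), 18.0% were more than 0.5 log2 units below the mean of the remaining libraries in Ctrl 1, whereas Ctrl 2 had 0.981% such genes, Il33flx 1 had 1.37% and Il33flx 2 had 1.85%.

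The ribosomal protein genes took a small and steady share of the counts. Their sum was 1.12% and 1.16% of gene counts in the Ctrl pair and 1.17% and 1.15% in the Il33flx pair. The groups overlapped, at 1.14% ± 0.0222 in Ctrl and 1.16% ± 0.0131 in Il33flx (SD, n = 2 each). The log2 ratio of Il33flx to Ctrl was 0.02 (two-sided exact permutation p = 0.667, where 2 libraries against 2 cannot go below 0.33). Counts of the large subunit and stalk exceeded those of the small subunit in every library, with ratios of 1.39 and 1.33 in Ctrl and 1.33 and 1.41 in Il33flx (exact permutation p = 0.667). These sums set 42 large subunit and 3 stalk genes against 31 small subunit genes. They were not adjusted for gene number or transcript length. In bulk RNA, fewer cells of a type and less RNA per cell cannot be told apart.

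This share covers only reads that the counting placed in 1 gene. Between 21.9% and 23.1% of all counted reads per library did not align uniquely and entered no gene. For the median member, 54.5% of all 50-base stretches and 39.8% of all 100-base stretches of its annotated transcript also occurred in transcripts of other genes, and 61 members have at least 1 annotated -ps copy. Rps27 was the extreme, with 98.4% of its 100-base stretches shared. By contrast, none of the 100-base stretches of Rps3, Rpl22, Rpl32, Rps21, Rps27l and Rps19bp1 were shared. The CPM per kilobase of transcript bore little relation to the shared portion (Spearman's rho 0.129 for 50 bases and 0.06 for 100 bases over 83 genes, which share libraries and are not independent replicates). Levels of strongly shared members are uncertain, and their ratios between libraries assume that the lost portion was alike in each.

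The count minimum itself left out a core subunit. Rpl24, a protein of the large subunit that bridges to the small one, had 6 and 6 counts in Ctrl and 15 and 5 in Il33flx, and 80.1% of its 100-base stretches occurred in 5 other genes. The other rows under the minimum were paralogs or retrogenes: Rps27rt had 73 counts in all, Rpl3l (the striated muscle counterpart of Rpl3) 65, Rps3a2 44, Rps3a3 27, Rpl39l 23, Rpl6l 2, and Rpl10l and Rps12l1 had 0. A count of 0 here limits uniquely placed reads only. The naming rule also left out 3 listed genes that encode ribosomal proteins under other names, Fau and Rack1 among them. Fau stood at 47.8 and 50.6 CPM in Ctrl and 52.3 and 40.2 CPM in Il33flx, and Rack1 at 630 and 540 against 507 and 580 CPM, with overlapping groups in both cases.

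A run of the TOP kind stood at the annotated start of some members. RefSeq promoter entries (GRCm38.p6, 250 bases before to 50 bases from the annotated start) were matched for 62 members, and 21 were not matched. A C within 5 bases of the annotated start that opens a run of at least 7 C or T bases was found on the gene's strand in 23 of the 62 (37.1%), against 7.64% of 27025 genes. The windows below hold 20 bases before and 20 bases from the start, with any such run in capitals, for members described later and for Rpl27a, which had the longest run shown (20 bases).
Rpl27a (chr7:109519175-109519214, plus strand): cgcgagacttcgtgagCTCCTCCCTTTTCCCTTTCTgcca
Rpl15 (chr14:18270967-18271006, minus strand): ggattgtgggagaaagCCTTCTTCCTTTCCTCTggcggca
Rps27 (chr3:90213629-90213668, minus strand): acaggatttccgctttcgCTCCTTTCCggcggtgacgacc
Rpl22l1 (chr3:28805488-28805527, plus strand): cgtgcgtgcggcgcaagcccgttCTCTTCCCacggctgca
Rpl22 (chr4:152324416-152324455, plus strand): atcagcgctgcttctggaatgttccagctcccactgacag
Rplp0 (chr5:115559447-115559486, plus strand): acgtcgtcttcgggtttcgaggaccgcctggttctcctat
Rpl15 and Rpl27a carry runs that begin just before the annotated base, whereas the Rpl22 and Rplp0 windows hold none at this position. The Rpl22 window lies upstream of the gene coordinates given for Rpl22 below. It therefore shows a start other than that of the transcript used here for Rpl22. A missing run says only that these letters are absent at the annotated start. Over the whole promoter entry, on either strand, CCGGAAG was found in 25 of 62 members (40.3%) and 9.93% of all genes, and TATAAA in 7 of 62 (11.3%) and 15.7%. GCCATTTTG, in 0.670% of all genes, was found in 0 of 62 members. Members with and without a run had like fold changes between genotypes, with medians of -0.04 for 23 genes and -0.06 for 39.

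No ribosomal protein gene was called different between the genotypes. At an adjusted p below 0.05 (edgeR quasi-likelihood test, Benjamini-Hochberg over 14995 genes), 0 of 83 were called, where 0.00667% of all genes were. At an unadjusted p below 0.05 the count was 0 of 83 by edgeR, by DESeq2 and by limma-voom. There edgeR placed 3.26% of all genes and 1.60% of the 7747 other genes of like CPM. DESeq2 called 0.353% of all genes and 0 members. The smallest unadjusted p of a member was 0.124 (Rps4l) and every adjusted p was at least 0.995.

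Fold changes of the family lay close to 0. The log2 fold change of Il33flx over Ctrl was within 0.1 of 0 for 54 members and within 0.3 for 77. The lowest value was -0.78 (Rpl37rt). Its median size regardless of sign was 0.0677 for members, 0.148 for the 7747 other genes of like CPM and 0.212 for all genes tested. The 95% interval of the fold change lay inside a 2-fold change in both directions for 76 members. It reached beyond in 7, among them Rpl22, Rpl22l1, Rpl37rt, Rpl39, Rps28 and Rps29. The median distance from the estimate to either end of the interval was 0.466 log2 units. The interval is not adjusted for the number of genes tested. With these 4 libraries, estimates smaller than that would mostly not reach even an unadjusted p below 0.05. A call at an adjusted p below 0.05 needs a smaller unadjusted p, so somewhat larger changes could be missed as well. Outside the family, Neat1 was not called at a log2 fold change of 0.90 (edgeR, adjusted p = 0.873).

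The log2 fold change was negative for 60 of the 83 genes and positive for 23. Its median was -0.05, against 0.01 over all genes tested. This split depends on scaling and on 1 library. Scaling by library size alone left 27 negative and moved the median of all genes from 0.01 to 0.09, whereas DESeq2's size factors gave 67. Without Il33flx 2, 31 were negative and the median was 0.04. In the authors' deposited table, all 83 were listed, 67 with a negative log2 fold change (median -0.07), and 0 had an unadjusted p below 0.05. The groups did not overlap, with both Il33flx libraries lower, for 10 members (12.0%, against 14.9% of all genes), and with both higher for 0 members (against 15.4%). Among the 10 were Rps2, Rps3, Rps19, Rpl7a, Rpl9, Rpl10, Rpl18, Rps4l and Rpl37rt.

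**Figure D1:**
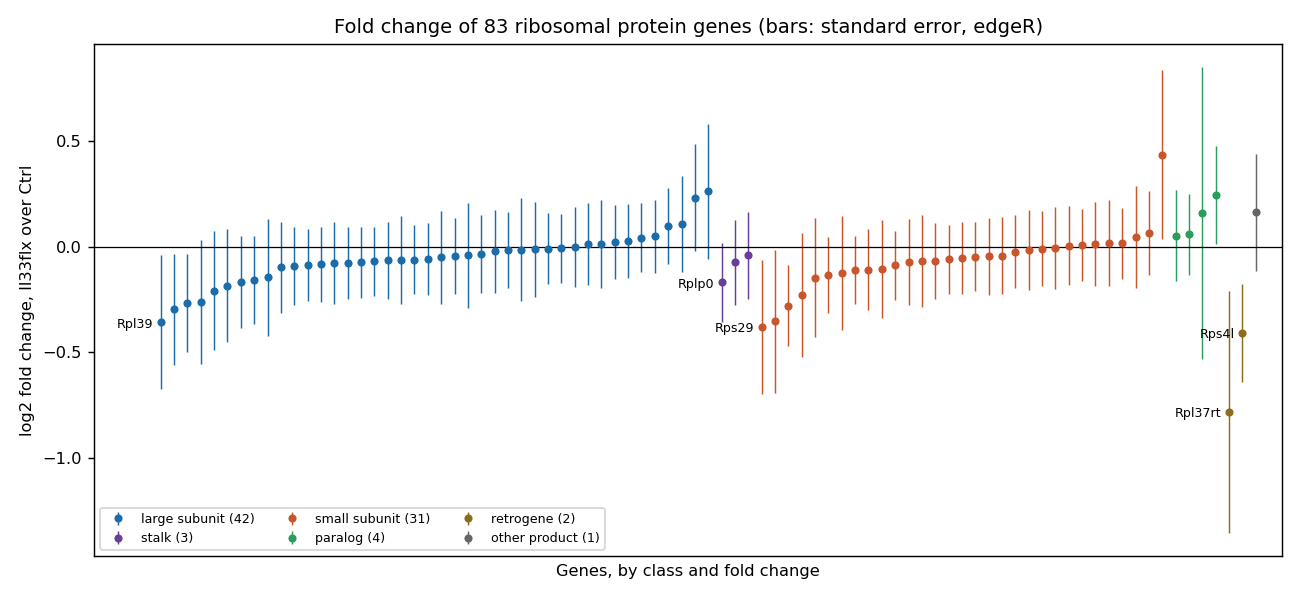
Log2 fold change of Il33flx over Ctrl (vertical axis) for each of the 83 ribosomal protein genes (horizontal axis), ordered by class and by fold change, with bars for the standard error from edgeR and a few members named. Most points lie within 0.1 of 0, and the retrogene Rpl37rt is the lowest at -0.78.

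The stalk proteins recruit the GTPase factors of translation to the large subunit. Rplp0, the base of the stalk (chr5:115559467-115563727, plus strand, GRCm38), was the most abundant member per kilobase of transcript, at 774 CPM per kilobase in Ctrl and 688 in Il33flx. It had 1157 and 945 CPM in Ctrl and 884 and 986 CPM in Il33flx. The groups overlapped, with a log2 fold change of -0.17 ± 0.19 (edgeR, SE, adjusted p = 0.995). Rplp1 stood at 74.8 and 86.6 CPM in Ctrl and 84.6 and 68.7 CPM in Il33flx. Rplp2 stood at 43.3 and 44.6 against 47.6 and 37.8 CPM. These acidic partners of Rplp0 were both lowest in Il33flx 2, and their log2 fold changes were -0.08 and -0.04. Rpsa, a small subunit protein also known as the laminin receptor, was even in all libraries, at 575 and 548 CPM in Ctrl and 534 and 552 CPM in Il33flx.

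Among the 42 proteins of the large subunit, the log2 fold change was negative in 32 and positive in 10, with a median of -0.05 and a range of -0.36 (Rpl39) to 0.26 (Rpl22). Rpl4, whose protein lines the exit tunnel, was next in level per kilobase, with 1000 and 957 CPM in Ctrl and 939 and 1085 CPM in Il33flx. Rpl3, at the peptidyl transferase centre, had 770 and 587 CPM in Ctrl and 553 and 662 CPM in Il33flx. Its high value was in Ctrl 1, and its log2 fold change of -0.16 ± 0.21 (SE) was 0.06 without that library. Rpl10, which joins the large subunit last, had 251 and 240 CPM in Ctrl and 237 and 232 CPM in Il33flx. Its groups did not overlap, yet the difference was small (edgeR, log2 fold change -0.06 ± 0.16 SE, adjusted p = 0.995). Rpl5 and Rpl11, which bind Mdm2 when free of the ribosome, had log2 fold changes of 0.10 and -0.05.

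Among the 31 proteins of the small subunit, the log2 fold change was negative in 23 and positive in 8, with a median of -0.05 and the lowest value in Rps29 (-0.38). Rps2, at the mRNA entry channel (chr17:24718116-24721929, plus strand), had 346 and 282 CPM in Ctrl and 238 and 279 CPM in Il33flx. Its groups lay next to each other without overlap. The log2 fold change was -0.28 ± 0.19 (SE; edgeR adjusted p = 0.995, unadjusted p = 0.192). It was -0.12 without Ctrl 1, and 64.7% of its 100-base stretches are shared with other genes. Rps3, its neighbour at the entry channel, had 612 and 600 CPM against 566 and 556 CPM, with none of its 100-base stretches shared (edgeR, log2 fold change -0.11 ± 0.16 SE). Rps6, the target of S6 kinase, was even, with a log2 fold change of -0.01. Rps15a had one of the 3 lowest levels per kilobase (6.09 CPM per kilobase in Ctrl), but its annotated transcript is 5130 bases long for 390 coding bases, and its level per library was 26.9 and 35.6 CPM in Ctrl and 36.3 and 28.2 CPM in Il33flx.

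Members varied less than other genes between the Ctrl libraries but more between the Il33flx libraries. The median log2 difference between Ctrl 1 and Ctrl 2, regardless of sign, was 0.171 for members and 0.299 for other genes of like CPM. Between Il33flx 1 and Il33flx 2 it was 0.226 for members and 0.153 for the others. The lowest of the 4 libraries was Il33flx 2 for 41 members, Ctrl 1 for 18, Il33flx 1 for 17 and Ctrl 2 for 7.

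The members with the lowest relative levels in Il33flx 2 included several of the smallest ribosomal proteins. Rps28 (chr17:33819027-33824562, minus strand), a small subunit protein at the mRNA exit channel, had 19.4 and 22.2 CPM in Ctrl and 21.5 and 11.0 CPM in Il33flx. Rps29, a zinc-binding protein of the head of the small subunit (chr12:69157722-69159186, minus strand), had 33.4 and 31.3 CPM in Ctrl and 32.5 and 17.3 CPM in Il33flx. In both genes Il33flx 2 was low while Il33flx 1 lay within or beside the Ctrl range, so the groups overlapped. With all libraries Rps29 had a log2 fold change of -0.38 ± 0.32 (edgeR, SE, adjusted p = 0.995), and 0.03 without Il33flx 2.

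Rps27, a zinc-ribbon protein of the small subunit, had 37.8 and 37.9 CPM in Ctrl and 41.3 and 23.3 CPM in Il33flx. Rpl37, a zinc-binding large subunit protein, had 27.8 and 29.1 against 30.1 and 17.4 CPM. Rpl39, which lines the exit tunnel, had 11.1 and 14.3 against 12.3 and 7.50 CPM. Rps27 and Rpl37 were highest in Il33flx 1 and lowest in Il33flx 2, within the same genotype. Without Il33flx 2 the log2 fold change of Rps27 was 0.16 in place of -0.23, and that of Rpl39 was -0.02 in place of -0.36.

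**Figure D2:**
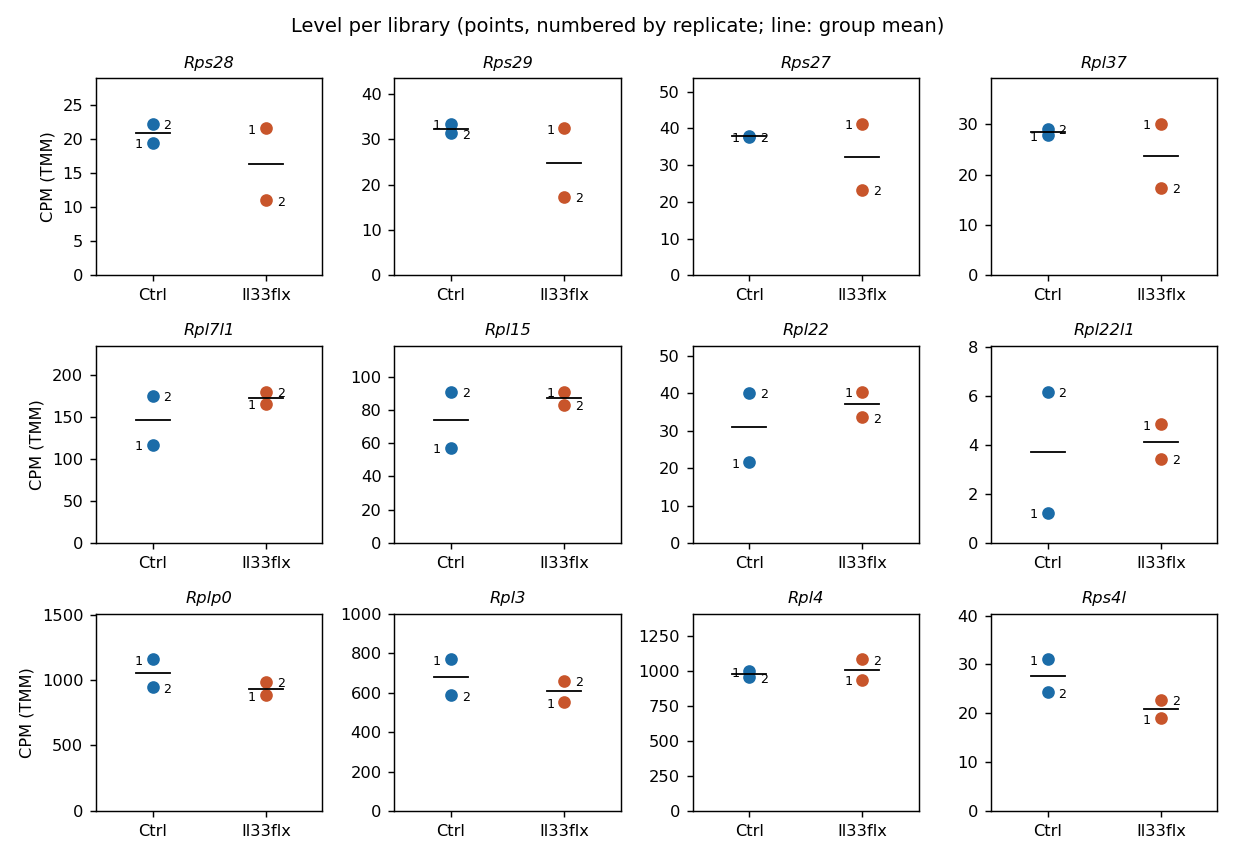
CPM with TMM factors (vertical axes, each starting at 0) in the Ctrl and Il33flx libraries for 12 ribosomal protein genes; points are libraries numbered by replicate and lines are group means. Rps28, Rps29, Rps27 and Rpl37 are low in Il33flx 2, Rpl7l1, Rpl15, Rpl22 and Rpl22l1 are low in Ctrl 1, and Rps4l is lower in both Il33flx libraries.

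Of the 10 members with fewer than 300 coding bases (Rpl37, Rpl37a, Rpl38, Rpl39, Rpl41, Rps21, Rps27, Rps27l, Rps28 and Rps29), 9 were lowest in Il33flx 2, the exception being Rps27l. Their level in Il33flx 2 relative to the mean of the remaining libraries had a median of 0.616-fold and a range of 0.525 to 0.892. The 23 members with 600 or more coding bases had a median of 1.05-fold and a range of 0.929 to 1.20. Summed counts of these long members over those of the short ones came to 28.0 and 23.7 in the Ctrl pair and to 22.7 and 38.2 in the Il33flx pair. Members more than 0.5 log2 units below the remaining libraries in Il33flx 2 numbered 10 (12.0%), against 1.85% of other genes of like CPM, and included the longer Rpl35 and Rps26 and the retrogene Rpl37rt. Of the 30 members with 300 to 450 coding bases, 21 were lowest in Il33flx 2.

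Across the 81 members with an annotated coding sequence, the deviation of Il33flx 2 followed coding length with a Spearman's rho of 0.776, and transcript length with 0.509. Across 9033 other coding genes the values in Il33flx 2 were -0.134 and -0.162. For members, rho with coding length was 0.249 in Ctrl 1, -0.678 in Ctrl 2 and -0.767 in Il33flx 1. Each deviation is taken against the mean of the remaining libraries, so the values of the libraries depend on each other. All points share the same libraries, so these describe the libraries only. By coding length, other genes showed little of the pattern seen in Il33flx 2. Below 300 coding bases the median in Il33flx 2 was -0.70 log2 units for 10 members and -0.07 for 167 other genes, and from 300 to 450 bases it was -0.22 for 30 members and 0.05 for 391 others. By transcript length, the shortest transcripts of other genes were low in Il33flx 2 as well. Below 400 bases of transcript the median was -0.63 log2 units for 6 members and -0.35 for 4 other genes, a thinly filled class. From 400 to 500 bases it was -0.25 for 8 members and -0.22 for 27 other genes, and from 500 to 600 bases -0.16 for 13 members and -0.12 for 54 others. From 800 to 1200 bases it was -0.03 for 24 members and 0.12 for 584 others. With a smooth trend on transcript length removed from each library (chosen after seeing the data), the short members still had a median of 0.731-fold in Il33flx 2 (range 0.575 to 1.01) and 9 of 10 were lowest there. The members were among the coding genes that the trend was fitted to, so part of their own deviation was removed with it. The part of RNA size selection or RNA quality in this pattern was not tested.

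**Figure D3:**
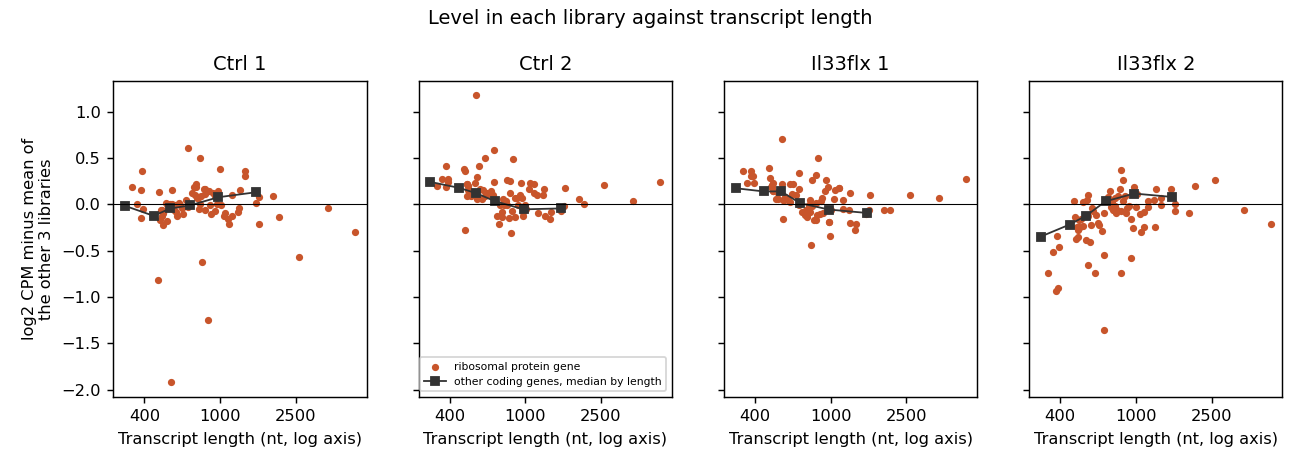
Log2 CPM of each library minus the mean of the other 3 (vertical axis) against transcript length in bases (horizontal log axis) for the 83 ribosomal protein genes (points) and the median of other coding genes of at least 5 CPM by length class (squares, drawn at the middle of each class). In Il33flx 2 both the short ribosomal protein genes and the shortest other genes lie below 0, at -0.63 and -0.35 under 400 bases.

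Ctrl 1 differed in another set of members. Members more than 0.5 log2 units below the remaining libraries in Ctrl 1 numbered 5 (6.02%), a smaller share than the 18.0% of other genes of like CPM. Rpl22, a large subunit protein with a role in lymphocyte development (chr4:152325742-152334071, plus strand), had 21.6 and 40.2 CPM in Ctrl and 40.5 and 33.7 CPM in Il33flx. Rpl15, a large subunit protein, had 57.4 and 90.9 CPM in Ctrl and 90.9 and 83.1 CPM in Il33flx. In both genes Ctrl 1 alone was low, and Ctrl 2 lay with the Il33flx libraries.

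Neither positive fold change was called. The log2 fold change was 0.26 ± 0.32 for Rpl22 and 0.23 ± 0.25 for Rpl15 (edgeR, SE, adjusted p = 0.995 for each). Without Ctrl 1 they were -0.11 and -0.05. Without Ctrl 2, when Ctrl 1 stood alone, they were 0.77 and 0.60. In that fit Rpl22l1 and Rpl7l1 were 1.73 and 0.55, and Rps4l and Rps2 were -0.58 and -0.42. Without Il33flx 1 the log2 fold changes of Rps29 and Rps28 were -0.91 and -0.92. Both fits assume that the lone library of its group varies like the others.

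Other measures also set Ctrl 1 apart. The summed level of 8 mitochondrially encoded genes was 543 and 1778 CPM in the Ctrl pair and 1574 and 927 CPM in the Il33flx pair. That of 9 snoRNA host genes, whose transcripts also carry TOP motifs, was 36.9 CPM in Ctrl 1 and 54.8 to 60.8 CPM elsewhere. The sum of 8 markers of mature dendritic cells was 3559 CPM in Ctrl 1 and 2249 to 2477 CPM elsewhere, with Ccr7, the lymph node homing receptor, at 999 CPM against 415 to 489. The part of these differences in the levels of Rpl22 and Rpl15 was not tested.

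Paralogs of ribosomal proteins can replace the parent protein in the ribosome or serve other roles. Rpl22l1, whose mRNA the Rpl22 protein is known to repress, had 95 and 465 counts in Ctrl, and in Il33flx it had 342 and 243. It was the least even member, with 1.24 and 6.18 CPM in Ctrl and 4.84 and 3.43 CPM in Il33flx. Ctrl 1 was low and Ctrl 2 the highest, so the Il33flx libraries lay inside the Ctrl range. The ratio of its counts to those of Rpl22 was 0.0572 and 0.154 in the Ctrl pair and 0.120 and 0.102 in the Il33flx pair. Both genes were thus lowest in Ctrl 1, the paralog more so than the parent. Its own log2 fold change was 0.16 ± 0.69 (edgeR, SE, adjusted p = 0.998), and -0.57 without Ctrl 1.

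Rps27l, a target gene of p53 (chr9:66946086-66949516, plus strand), had uniquely placed counts of the same order as those of its parent Rps27 (chr3:90212522-90213651, minus strand). It had 35.9 and 43.7 CPM in Ctrl and 45.5 and 37.1 CPM in Il33flx. The coding sequences of both genes (GENCODE M21, GRCm38) are 255 bases long with the stop codon and differ at 61 positions (76.1% identity). They are shown because reads of the pair can be told apart along the whole length, while Rps27 itself shares nearly all its 100-base stretches with copies elsewhere. Capitals mark the differing bases.
Rps27: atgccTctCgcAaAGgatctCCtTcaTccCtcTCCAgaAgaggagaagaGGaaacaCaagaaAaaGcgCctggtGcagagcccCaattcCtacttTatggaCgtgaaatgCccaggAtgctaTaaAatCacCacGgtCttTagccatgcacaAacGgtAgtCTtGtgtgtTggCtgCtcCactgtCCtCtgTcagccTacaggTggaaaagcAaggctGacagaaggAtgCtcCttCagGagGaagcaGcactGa
Rps27l: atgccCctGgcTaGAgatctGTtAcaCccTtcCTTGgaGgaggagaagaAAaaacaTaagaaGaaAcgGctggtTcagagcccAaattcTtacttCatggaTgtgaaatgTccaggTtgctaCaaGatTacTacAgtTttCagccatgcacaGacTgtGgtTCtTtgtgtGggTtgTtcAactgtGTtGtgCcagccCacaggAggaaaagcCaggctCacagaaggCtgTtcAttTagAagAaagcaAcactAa
Counts of Rps27l over those of Rps27 came to 0.951 and 1.16 in Ctrl and 1.10 and 1.59 in Il33flx. Il33flx 2, where Rps27 was low, gave the highest ratio, and the groups overlapped (exact permutation p = 0.667). Reads of Rps27 that also fit its copies were not placed, so the level of Rps27l relative to Rps27 is uncertain.

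Rpl7l1, which resembles Rpl7 and has been linked to ribosome assembly (chr17:46773907-46782672, minus strand), had 118 and 176 CPM in Ctrl and 166 and 181 CPM in Il33flx. Rpl7, a large subunit protein (59.9% identical over the aligned coding bases), had 249 and 226 CPM in Ctrl and 230 and 241 CPM in Il33flx. The ratio of the pair was lowest in Ctrl 1, at 0.472 against 0.722 to 0.779 elsewhere. For Rpl7l1 the log2 fold change was 0.24 ± 0.23 (edgeR, SE, adjusted p = 0.995), and -0.01 without Ctrl 1.

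Rpl36al exceeded its parent. It had 36.4 and 42.3 CPM in Ctrl and 41.4 and 40.5 CPM in Il33flx, while Rpl36a, on chromosome X, had 9.85 and 13.0 CPM in Ctrl and 11.8 and 8.84 CPM in Il33flx. The ratio of the paralog to the parent was 3.70 and 3.26 in Ctrl and 3.51 and 4.59 in Il33flx. The coding sequences are 87.9% identical, 83.6% of the 100-base stretches of Rpl36a and 59.0% of those of Rpl36al occur in other genes, and 63.1% of the exon bases of Rpl36al overlap another annotated gene on the same strand, so this ratio is uncertain.

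**Figure D4:**
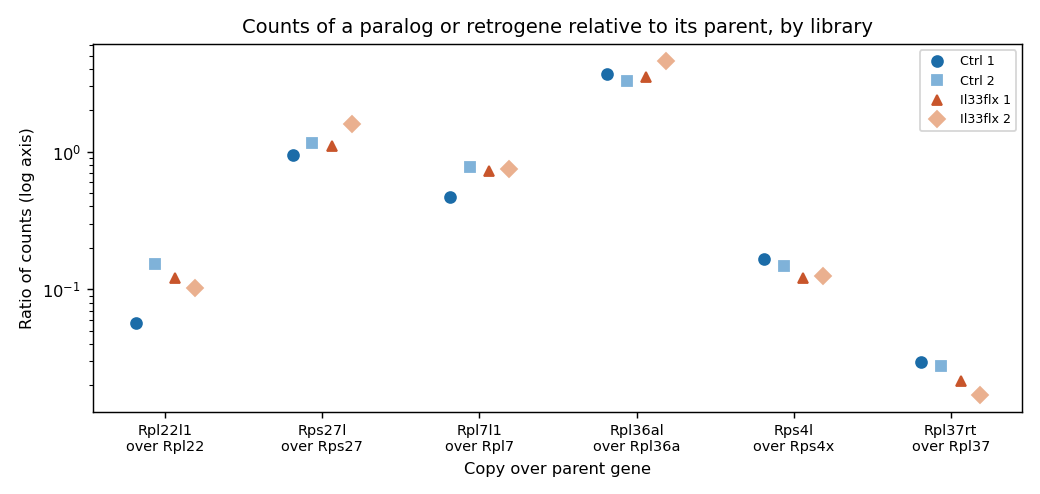
Ratio of the counts of a paralog or retrogene to those of its parent gene (vertical log axis) in each library (symbols) for 6 pairs (horizontal axis). Rpl22l1 over Rpl22 and Rpl7l1 over Rpl7 are lowest in Ctrl 1, and Rps4l over Rps4x and Rpl37rt over Rpl37 are lower in both Il33flx libraries.

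The retrogenes had the lowest fold changes of the subunit-like members. Rps4l, a copy of the X-linked Rps4x on chromosome 6 (chr6:148354656-148355598, plus strand), had 31.0 and 24.3 CPM in Ctrl and 19.0 and 22.7 CPM in Il33flx. Both Il33flx libraries lay below both Ctrl libraries. Its log2 fold change was -0.41 ± 0.23 (SE; edgeR adjusted p = 0.995, unadjusted p = 0.124), and -0.21 without Ctrl 1. Only 2.03% of its 100-base stretches occur in other genes. Its longest open reading frame is 786 bases, against 789 in Rps4x, with 80.1% of bases identical.

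Rps4x itself stood at 186 and 165 CPM in Ctrl and 156 and 184 CPM in Il33flx. Counts of Rps4l were 16.7% and 14.7% of those of Rps4x in Ctrl and 12.1% and 12.4% in Il33flx. The ratio did not overlap between the groups (exact permutation p = 0.33, the smallest that 2 against 2 can give).

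Rpl37rt (chr5:115102923-115110268, minus strand) was near the lower end of detection, with 0.821 and 0.811 CPM in Ctrl and 0.652 and 0.296 CPM in Il33flx. Its groups did not overlap, and its log2 fold change of -0.78 ± 0.57 (SE; edgeR adjusted p = 0.995, unadjusted p = 0.218) was -0.29 without Il33flx 2. Its transcript differs from the coding sequence of Rpl37 at 1 of 294 bases (99.7% identity). Its counts were 2.95% and 2.78% of those of Rpl37 in Ctrl and 2.16% and 1.70% in Il33flx, and reads that fit both genes were not placed. Rps19bp1, which encodes a regulator of the deacetylase Sirt1, had 8.96 and 7.21 CPM in Ctrl and 7.79 and 10.3 CPM in Il33flx.

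The rest of the translation apparatus gave 0 called genes (edgeR, adjusted p below 0.05). Of 20 translation factors with TOP mRNAs, the log2 fold change was negative for 9 and positive for 11, and its median was 0.05. Eif4a2, a subunit of the cap-binding complex, had 27.7 and 43.1 CPM in Ctrl and 55.8 and 48.9 CPM in Il33flx (edgeR, log2 fold change 0.57 ± 0.26 SE, adjusted p = 0.995). The 26 other initiation and elongation factors had a median of 0.10, and 9 snoRNA host genes a median of 0.23, with 8 positive. Of 77 mitochondrial ribosomal protein genes, which build the separate ribosome of that organelle, 37 were negative and 40 positive, with a median of 0.01.

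Of 52 genes of ribosome biogenesis, 31 were negative and 21 positive (median -0.03). Groups did not overlap for 11 on the lower side (21.2%, beside 14.9% of all genes) and for 3 of 52 on the higher side (beside 15.4% of all genes). Rrp12, which helps export the pre-ribosomal subunits, had 99.5 and 85.9 CPM in Ctrl and 63.3 and 70.0 CPM in Il33flx. Both Il33flx libraries were lower (edgeR, log2 fold change -0.48 ± 0.19 SE, adjusted p = 0.995 and unadjusted p = 0.0401). Polr1a, the large subunit of RNA polymerase I, had 155 and 128 CPM in Ctrl and 116 and 103 CPM in Il33flx (edgeR, log2 fold change -0.37 ± 0.19 SE). Of 11 genes of ribosome-associated quality control, 6 were negative and 5 positive. Zfp598, the sensor of collided ribosomes, had 14.1 and 12.1 CPM in Ctrl and 8.81 and 9.08 CPM in Il33flx. Pelo, which rescues stalled ribosomes, had 1.51 and 1.21 CPM in Ctrl and 1.59 and 2.95 CPM in Il33flx. Their log2 fold changes had opposite signs, at -0.55 and 0.74. In 22 genes that control TOP mRNAs or the response to ribosomal stress, 12 were negative and 10 positive (median -0.01). Mlst8, a component of mTORC1, had 21.3 and 18.8 CPM in Ctrl and 15.2 and 15.2 CPM in Il33flx. Larp7, a La-related protein that binds the 7SK RNA, was higher in both Il33flx libraries, at 14.7 and 17.3 against 19.6 and 25.2 CPM. Groups did not overlap for 3 of the 22 genes in each direction.

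Summed marker levels of several cell types did not overlap between the groups. The sum of 11 B cell markers was 87.4 and 86.6 CPM in Ctrl and 156 and 132 CPM in Il33flx, with 10 of 11 higher in both Il33flx libraries (15.4% of all genes were). For 11 neutrophil markers the sums were 376 and 345 against 647 and 456 CPM, and for 6 markers of type 2 conventional dendritic cells 458 and 422 against 481 and 466 CPM. By gene, 5 of the 11 neutrophil markers and 1 of the 6 type 2 markers were higher in both Il33flx libraries, and 0 were lower. Lower in both Il33flx libraries were the sums of 8 markers of type 1 conventional dendritic cells (11243 and 10465 against 9164 and 10159 CPM) and of 7 plasma cell markers (420 and 381 against 375 and 356 CPM). The genes within these lists were mixed. Of the 8 type 1 markers, 3 were lower in both Il33flx libraries (14.9% of all genes were), and 3 had a positive log2 fold change. Of the 7 plasma cell markers, 4 were lower and 2 higher in both.

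Sums of the remaining lists overlapped. The sum of 12 erythroid markers was 34.4 and 17.9 CPM in Ctrl and 63.2 and 33.8 CPM in Il33flx, and that of 11 T cell markers, which EL4 cells could also express, 139 and 110 against 122 and 88.7 CPM. Car2 (27.6 and 11.3 against 25.2 and 17.2 CPM) and Cd4 (42.6 and 38.0 against 57.0 and 33.3 CPM) took a large part of these sums. By gene, 9 of the 12 erythroid markers were higher in both Il33flx libraries (15.4% of all genes were) and 0 lower. Of the 11 T cell markers, 7 were lower in both (14.9% of all genes were) and 0 higher. The ranges over all libraries were 1630 to 1980 CPM for macrophages and monocytes, 169 to 247 CPM for plasmacytoid dendritic cells, 8.85 to 14.2 CPM for NK cells and 3472 to 4330 CPM for proliferation. Itgax, which encodes the CD11c whose promoter drives Cre, had 647 and 517 CPM in Ctrl and 359 and 407 CPM in Il33flx (edgeR, log2 fold change -0.60 ± 0.19 SE, adjusted p = 0.995). Neat1, a long noncoding RNA retained in the nucleus, had 42.0 and 46.7 CPM in Ctrl and 84.0 and 81.9 CPM in Il33flx (edgeR, log2 fold change 0.90 ± 0.18 SE, adjusted p = 0.873). The part of these differences in the levels of the ribosomal protein genes was not tested.

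The genes outside the family whose levels followed the median member most closely over the 4 libraries were Polr1d, Aff4, Psmg4, Sp100 and Ssr4, with root mean square distances of 0.0153 to 0.0193 on the centred log2 scale. Polr1d, a subunit shared by RNA polymerases I and III, had 54.5 and 57.6 CPM in Ctrl and 56.5 and 52.0 CPM in Il33flx. The median member itself was nearly flat, at 0.0008 and 0.074 log2 units from its mean in Ctrl and 0.047 and -0.063 in Il33flx. Genes that change little thus lie close to it, and shared regulation was not tested.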

How the data were processed

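Gene counts, whole read numbers that the authors deposited without normalization, were used for 4 libraries. The submitters' processing notes name build GRCm38, STAR, HTSeq, DESeq2 and Trimmomatic 0.39, and per the labels' protocols an Illumina TruSeq mRNA kit was used. Annotation release, strand setting and read length are not given in the sources used here, so for 11 members, reads from an overlapping antisense gene cannot be told apart. The 5 summary rows of HTSeq stayed out of library sizes and tests: they held 21.9% to 23.1% of reads without a unique alignment, 2.62% to 2.74% ambiguous reads and 3.22% to 4.93% in no feature. The authors' deposited table holds a signal per library (counts divided by 1 size factor each), log2 fold changes, a Wald score and p-values. These were used only for symbols and where that table is named.

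The genotypes were compared in edgeR 4.0.16 (R 4.3.3) with its quasi-likelihood F test, filterByExpr, TMM factors and no covariate over 14995 genes, which were called at a Benjamini-Hochberg adjusted p below 0.05. Levels are TMM-scaled CPM, and standard errors are the log2 fold change over the square root of F. The biological coefficient of variation was 28.6%. The procedure was tested on simulated data. Alternatives used other scaling, other filters, DESeq2 1.42.0, limma 3.58.1 (voom), a replicate block and each library left out. Coordinates, transcripts and coding lengths (without the stop codon) come from GENCODE M21, with 1 transcript per gene, and promoters from RefSeq.

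Members and gene lists were chosen with earlier results of these data known. Named members were the 4 positive and 4 negative fold changes with the smallest unadjusted p, the stalk group, paralogs with their parents, and the 3 highest and 3 lowest per kilobase; some of these are not reported here. Other members named, among them Rps28, Rpl37, Rps3, Rps6, Rpl5 and Rpl11, were chosen after their values were seen.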

Additional observations from a re-analysis of the deposited data

How the results depend on the processing

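No member was called in any of the 14 alternatives. Over all genes, where edgeR called 1, the count was 0 with library size alone, 0 with limma-voom, 0 with no filter, 53 with DESeq2 and 33 with the replicate block. It ran from 0 to 36 when 1 library was left out (0 without Ctrl 2, 36 without Ctrl 1, 29 without Il33flx 1). The labels do not pair libraries by number, and deviations of same-numbered libraries correlated at -0.164 over 8723 genes. The median log2 fold change of members, -0.05, was 0.026 with library size alone (0.09 for all genes), -0.13 with a coding length trend removed (chosen after seeing the data), -0.05 with the replicate block, and -0.10 (without Il33flx 1) to 0.040 (without Il33flx 2) with 1 library left out. With library size alone the sign reversed for Rplp1 (0.0022), Rplp2 (0.038), Rpsa (0.030), Rpl7 (0.069), Rps4x (0.032) and Rpl10 (0.017). Rpl7 was 0.0018 with a 1 CPM filter, and with the coding length trend removed Rpl36al was -0.013 and Rps15a -0.032. The cause was not tested.

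With 1 library left out, the log2 fold change reversed in at least 1 case for 16 of 23 named members. The lowest and highest values were -0.011 and 0.55 for Rpl7l1, -0.054 and 0.60 for Rpl15, -0.11 and 0.77 for Rpl22, -0.57 and 1.73 for Rpl22l1, -0.91 and 0.034 for Rps29, -0.70 and 0.16 for Rps27, -0.23 and 0.096 for Rplp1, -0.22 and 0.14 for Rplp2, -0.11 and 0.22 for Rps27l, -0.086 and 0.071 for Rpl7, -0.037 and 0.16 for Rpl36al, -0.37 and 0.077 for Rpl36a, -0.14 and 0.063 for Rps4x, -0.35 and 0.055 for Rpl3, -0.029 and 0.15 for Rpl4, and -0.15 and 0.26 for Rps15a. Rps2, Rps4l, Rpl37rt, Rplp0, Rpsa, Rpl10 and Rpl39 kept a negative sign whichever library was left out.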
